A study of Homo sapiens with 43 samples.

Results

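The levels and U2AF binding of 9 long noncoding RNA (lncRNA) genes were followed by name: MALAT1, NEAT1, NORAD, KCNQ1OT1, FTX, JPX, TUG1, OIP5-AS1 and MEG3. They were 9 of the 58347 gene entries in the count tables, and all 9 had an entry in the RNA-seq, eCLIP and freCLIP tables. The RNA was read from whole cells, so nuclear retention, the property for which they are grouped, was not measured. HEL cells, an established line from a human erythroleukemia, carried a stably transduced U2AF1 gene with the S34F substitution, the Q157R substitution or the wild-type (WT) sequence. Induced cells received doxycycline at 1 µg/ml for 48 hours, and all cells grew in tetracycline-negative serum. RNA-seq after rRNA depletion had 2 induced S34F libraries, 1 uninduced S34F library, 2 induced Q157R libraries, 1 uninduced Q157R library, 2 induced WT libraries and 2 uninduced WT libraries. In eCLIP, ultraviolet light fixes a protein to the RNA it touches, and pulling down the protein brings the RNA with it. The WT line gave 3 libraries for U2AF1, recovered by its FLAG tag, and 4 for U2AF2, and the libraries labelled as technical replicates were summed to leave 2 of each. In freCLIP the U2AF1 complexes were also cut by size, with a light band between 37 and 65 kD and a heavy band between 65 and 110 kD. The light fraction had 3 S34F, 2 Q157R and 3 WT libraries, and the heavy fraction had 3, 2 and 4. Whether each line was 1 clone or a mixed population is not given in the labels. The labels name no removal of the cells' own U2AF1.

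U2AF1 and U2AF2 form the heterodimer that marks the 3' splice site of an intron. U2AF2 binds the pyrimidine-rich tract, and U2AF1 reads the closing AG with the bases around it. S34F and Q157R lie in the zinc fingers of U2AF1 and are known to change which bases beside that AG it prefers. MALAT1 lies in nuclear speckles, and NEAT1 is the scaffold of paraspeckles. KCNQ1OT1 and MEG3 come from imprinted clusters, and FTX and JPX come from the X inactivation centre. NORAD and OIP5-AS1 also have described roles in the cytoplasm, where NORAD binds PUMILIO proteins. In GENCODE release 29, MALAT1, NEAT1, KCNQ1OT1 and NORAD have a transcript of 1 exon, while FTX, JPX, TUG1, OIP5-AS1 and MEG3 have only spliced ones.

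RNA-seq libraries held 22392303 to 40370092 counts that named a gene, eCLIP libraries 306711 to 1148212 and freCLIP libraries 38415 to 730996. Of 18 erythroid and HEL markers 15 reached 1 CPM (gene counts scaled to a common library size, as all levels below) in every RNA-seq library, with GATA1 at 165 to 218, while HBA1, SLC4A1 and HBA2 did not, HBA2 at 0 to 0.0804. Of 8 lymphoid markers 3 did, PTPRC at 137 to 327 CPM, CD7 and CD2, and the T and B cell markers CD3E and MS4A1 stayed at 0 to 0.111 and at 0. Of 10 stromal and epithelial markers 3 did, PECAM1 at 261 to 585 CPM, KRT18 and KRT8, and DCN and EPCAM stayed at 0 to 0.0742 and 0 to 0.0371. The U2AF1 entry read 11 to 22.1 CPM over the 10 RNA-seq libraries and did not separate induced from uninduced cells. That entry shares reads with the near-identical annotated copy U2AF1L5 and is uncertain. The share of reads that fell on no annotated gene was 33.6% ± 0.14 in induced S34F libraries and 20.3% in the uninduced S34F library (SD, n = 2 and 1). It was 25.1% ± 2.65 in induced Q157R and 20.6% in uninduced Q157R (SD, n = 2 and 1), and 22.7% ± 0.0289 in induced WT and 19.2% ± 0.39 in uninduced WT (SD, n = 2 each). This share moved with the groups compared below, and its part in the results was not tested.

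In levels per kilobase of annotated exon, MALAT1 was the most abundant of the 9 RNAs, with a median of 393 CPM per kilobase over the 10 RNA-seq libraries and a range of 263 to 634. NORAD came next, at 115 (86.3 to 158), and neither range overlapped any other member's. OIP5-AS1 at 20.8 (11.9 to 30), TUG1 at 17.4 (14.5 to 23.5) and NEAT1 at 13 (6.73 to 23.5) had ranges that overlapped each other. The same held for KCNQ1OT1 at 2.24 (1.05 to 5.39), JPX at 1.74 (1.46 to 2.67) and FTX at 1.27 (0.628 to 2.46), so the order within these groups of neighbours is not resolved. MEG3, a tumour suppressor lncRNA of the imprinted DLK1 cluster, stood far below at a median of 0.00315. Its counts were 4 and 8 in induced S34F libraries, 0 in uninduced S34F, 1 and 9 in induced Q157R, 2 in uninduced Q157R, 5 and 2 in induced WT, and 1 and 0 in uninduced WT. A count of 0 allows up to 0.0814 CPM in the uninduced S34F library and 0.0934 CPM in the second uninduced WT library. MEG3 did not pass the filter on low counts, and the other 8 RNAs did.

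MALAT1 (chr11:65497688-65506516, plus strand) read 5600 and 4270 CPM in induced S34F libraries and 2650 in the uninduced S34F library. Induced Q157R libraries had 4380 and 3910 CPM against 2330 in uninduced Q157R, and induced WT libraries had 3720 and 3040 against 2320 and 3230 in uninduced WT. Both mutant lines were above WT in every induced library. NEAT1 (chr11:65422774-65445540, plus strand), the paraspeckle scaffold, read 347 and 293 CPM in induced S34F and 304 in uninduced S34F. It read 429 and 536 CPM in induced Q157R against 297 in uninduced Q157R, and 266 and 222 in induced WT against 245 and 153 in uninduced WT. Induced Q157R libraries were thus the highest of all for NEAT1, and both induced mutant groups lay above induced WT.

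KCNQ1OT1 (chr11:2608328-2699994, minus strand) is the antisense RNA that silences the KCNQ1 imprinted domain in cis. It read 435 and 494 CPM in induced S34F and 141 in uninduced S34F. It read 206 and 322 CPM in induced Q157R against 117 in uninduced Q157R, and 206 and 224 in induced WT against 159 and 96.3 in uninduced WT. Induced S34F libraries stood above all others, and induced Q157R overlapped induced WT. FTX (chrX:73946555-74293574, minus strand) is a spliced RNA that hosts the miR-374 and miR-545 clusters and is known, in mouse, as an activator of Xist. It read 64.7 and 70.1 CPM in induced S34F and 18.2 in uninduced S34F. It read 46.1 and 52.6 CPM in induced Q157R against 21.5 in uninduced Q157R, and 34 and 38.7 in induced WT against 17.9 and 20.3 in uninduced WT. The 3 induced groups did not overlap one another, and each lay above its uninduced libraries. JPX (chrX:73944184-74070408, plus strand), transcribed across the FTX locus from the other strand, read 36.2 and 30.3 CPM in induced S34F and 21.9 in uninduced S34F. It read 20.1 and 19.7 CPM in induced Q157R against 23.1 in uninduced Q157R, and 26.8 and 24.2 in induced WT against 20.7 and 31.6 in uninduced WT. JPX was highest in induced S34F and lowest in induced Q157R among the induced libraries.

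TUG1 (chr22:30969245-30979395, plus strand), a lncRNA described in chromatin and mitochondrial regulation, read 203 and 239 CPM in induced S34F and 186 in uninduced S34F. It read 183 and 175 CPM in induced Q157R against 174 in uninduced Q157R, and 158 and 147 in induced WT against 175 and 179 in uninduced WT. OIP5-AS1 (chr15:41283990-41309737, plus strand), a binder of the RNA-stability protein ELAVL1, was the member that ran lower in S34F. It read 151 and 182 CPM in induced S34F and 239 in uninduced S34F, 292 and 302 in induced Q157R against 267 in uninduced Q157R, and 254 and 313 in induced WT against 261 and 380 in uninduced WT. The induced S34F libraries were the lowest of all for OIP5-AS1. NORAD (chr20:36045622-36050960, minus strand) read 670 and 844 CPM in induced S34F and 543 in uninduced S34F, 461 and 630 in induced Q157R against 557 in uninduced Q157R, and 522 and 722 in induced WT against 598 and 699 in uninduced WT. For NORAD the induced groups of S34F and WT overlapped, and so did those of Q157R and WT.

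**Figure D1:**
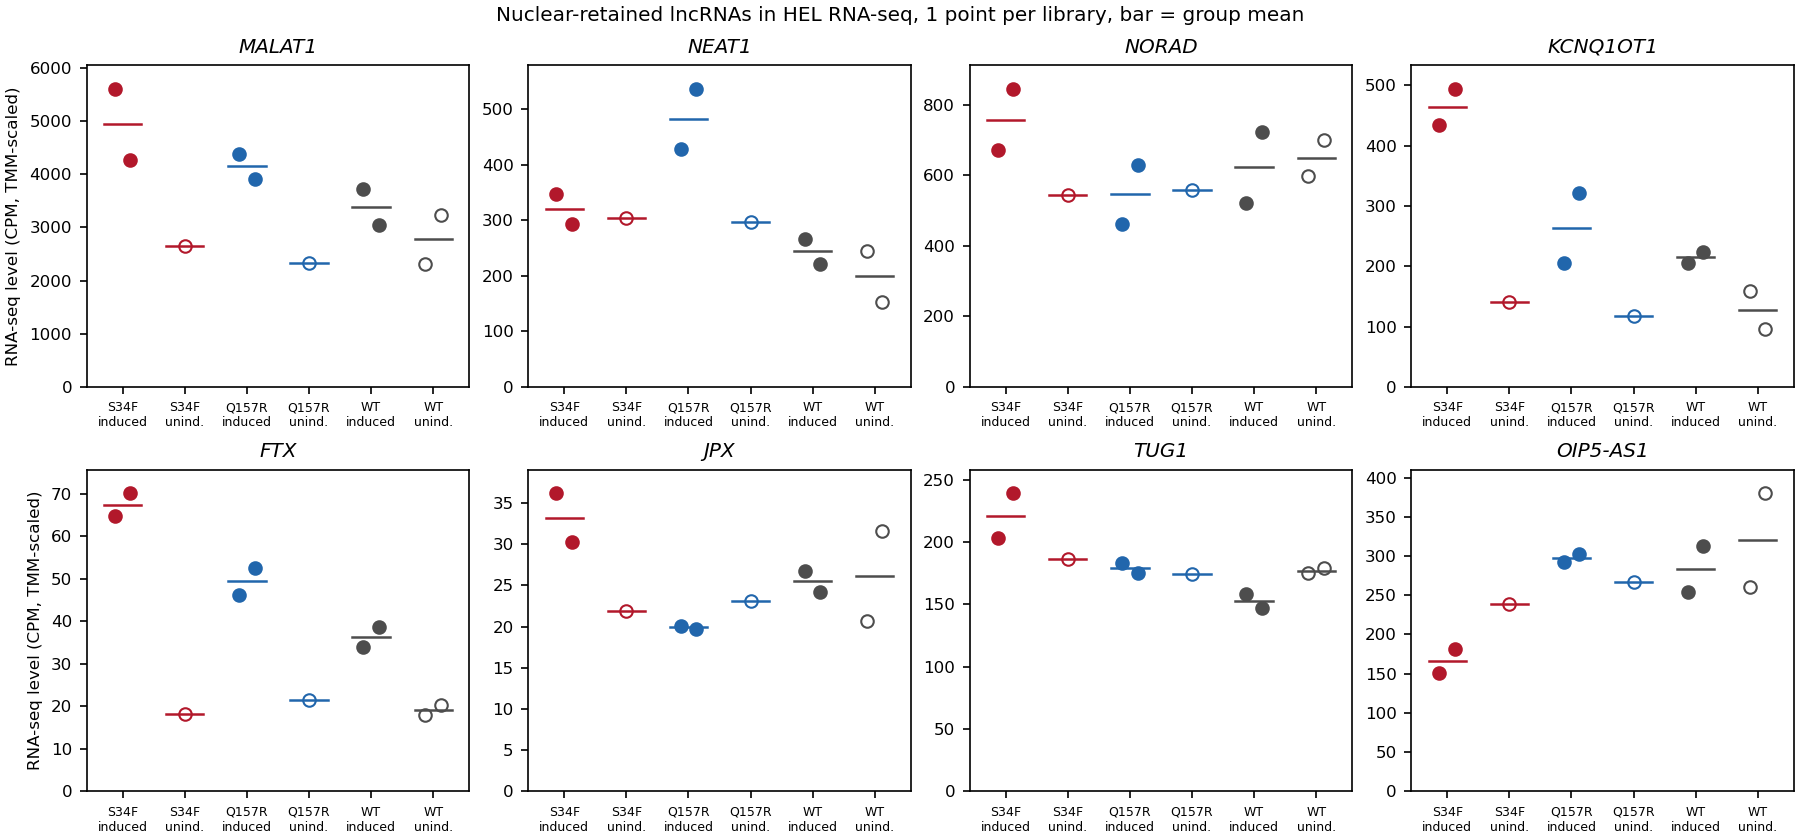
RNA-seq level of each of the 8 members that passed the filter, in TMM-scaled CPM on linear axes from 0, with 1 point per library, a bar at the group mean and the groups labelled below. FTX and KCNQ1OT1 were highest in the 2 induced S34F libraries, at 64.7 and 70.1 CPM and at 435 and 494 CPM, NEAT1 in the 2 induced Q157R libraries, and OIP5-AS1 was lowest in the 2 induced S34F libraries.

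The next comparison sets the S34F line against the WT line, both after doxycycline. Each genotype was carried by its own transduced line. The mutation and the line therefore cannot be told apart here or in the other comparisons between genotypes, freCLIP included. Responses to induction, which set each line against its own uninduced cells, are compared between lines further below. FTX averaged 67.4 ± 3.85 CPM in S34F and 36.3 ± 3.32 CPM in WT (SD, n = 2 each), a fold of 1.86 (log2 fold change 0.89 ± 0.18, SE). In bulk RNA, fewer cells with an RNA and less of it per cell cannot be told apart. KCNQ1OT1 averaged 464 ± 41.8 CPM in S34F and 215 ± 12.4 CPM in WT (SD, n = 2 each), a fold of 2.16 (1.11 ± 0.29). In edgeR's quasi-likelihood test, with p-values adjusted by Benjamini and Hochberg's method across the 21300 genes tested, 0 of the 8 RNAs passed 0.05, against 1.67% of all genes tested. At an unadjusted p under 0.05 there were 5 of the 8, and 3 (FTX, KCNQ1OT1 and OIP5-AS1) passed in DESeq2. Of all 21300 genes tested 4973 were at that level, and DESeq2 called 1567 genes. The adjusted p from edgeR was 0.0508 for FTX, 0.0801 for KCNQ1OT1, 0.0979 for OIP5-AS1 (log2 fold change -0.77 ± 0.22) and 0.0994 for TUG1 (0.53 ± 0.15). The RNA-seq replicate numbers were taken, from these same data, to pair the libraries. When the number entered the edgeR fit as a block, 4 of 8 were called, where 22.4% of all genes tested were called, 9.56% higher and 12.9% lower. These were FTX (adjusted p = 0.00195), KCNQ1OT1 (0.0321) and TUG1 (0.0165), higher in S34F, and OIP5-AS1 (-0.76 ± 0.14, adjusted p = 0.00416), lower in S34F. MALAT1 stood at 0.55 ± 0.23 (adjusted p = 0.204, and 0.0649 with the block), NEAT1 at 0.39 ± 0.25, JPX at 0.38 ± 0.23 and NORAD at 0.28 ± 0.24, and none of these passed either fit.

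The direction of most members was also that of lncRNA genes at large. The median log2 fold change between S34F and WT was 0.46 over the 8 RNAs, 0.43 over all 4053 lncRNA entries tested and 0 over all genes tested. Of the 4053 entries, 38 were called higher and 0 lower by edgeR, and with the block 569 were higher and 76 lower. The 4 members with an annotated transcript of 1 exon had a median of 0.47, and the 4 tested members with spliced transcripts only had 0.46. Scaling by total gene counts in place of TMM moved the median of all genes by 0.2, and the sign of each of the 8 was kept in all 12 settings tried. The log2 fold change of FTX ranged from 0.8 to 1.09 over those settings and its adjusted p from 0.00195 to 0.359, and for KCNQ1OT1 they ranged from 1.02 to 1.31 and from 0.000118 to 0.367.

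Between induced Q157R and induced WT cells the widest gap was that of NEAT1. It averaged 482 ± 75.6 CPM in Q157R and 244 ± 31.1 CPM in WT (SD, n = 2 each), a log2 fold change of 0.98 ± 0.25 (SE). Its unadjusted p of 0.00422 from edgeR became 0.9999 after adjustment, and 0.181 with the block, where 0.0188% of all genes tested were called. Before induction NEAT1 read 297 CPM in the 1 Q157R library and 245 and 153 CPM in WT, and that gap was not tested. FTX averaged 49.4 ± 4.54 CPM in Q157R and 36.3 ± 3.32 CPM in WT, at 0.44 ± 0.17. None of the 8 RNAs passed in edgeR (0 of 8), where 0% of all genes tested did. At an unadjusted p under 0.05 there were 2, NEAT1 and FTX, and 0 passed in DESeq2. Of all 21300 genes tested 716 were at that level, and DESeq2 called 3 genes. The other log2 fold changes were 0.30 ± 0.28 for KCNQ1OT1, 0.30 ± 0.23 for MALAT1, 0.22 ± 0.15 for TUG1, 0.07 ± 0.22 for OIP5-AS1, -0.19 ± 0.24 for NORAD and -0.36 ± 0.23 for JPX. The median of the 8 was 0.26, beside 0.04 over all lncRNA entries tested and -0.01 over all genes tested.

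The induced S34F libraries were also set directly against the induced Q157R libraries. OIP5-AS1 averaged 167 ± 22 CPM in S34F and 297 ± 7.17 CPM in Q157R (SD, n = 2 each), at -0.83 ± 0.22 (SE, edgeR adjusted p = 0.0972). JPX averaged 33.2 ± 4.19 CPM in S34F and 19.9 ± 0.234 CPM in Q157R, at 0.74 ± 0.23 (adjusted p = 0.137). KCNQ1OT1 stood at 0.82 ± 0.28, NORAD at 0.47 ± 0.24, FTX at 0.45 ± 0.17, TUG1 at 0.31 ± 0.15, MALAT1 at 0.25 ± 0.23 and NEAT1 at -0.59 ± 0.25. In edgeR 0 of 8 passed, where 0.559% of all genes tested did. DESeq2 called 1, OIP5-AS1, and 5 had an unadjusted p under 0.05. Over all genes DESeq2 called 1237, and 4587 of the 21300 tested were at that level. With the block 4 of 8 were called, where 20% of all genes tested were, 8.49% higher and 11.5% lower. OIP5-AS1 (adjusted p = 0.00307) was lower in S34F, and NORAD (0.0257), JPX (0.0268) and FTX (0.043) were higher. These comparisons share the induced S34F, Q157R and WT libraries with those above.

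**Figure D2:**
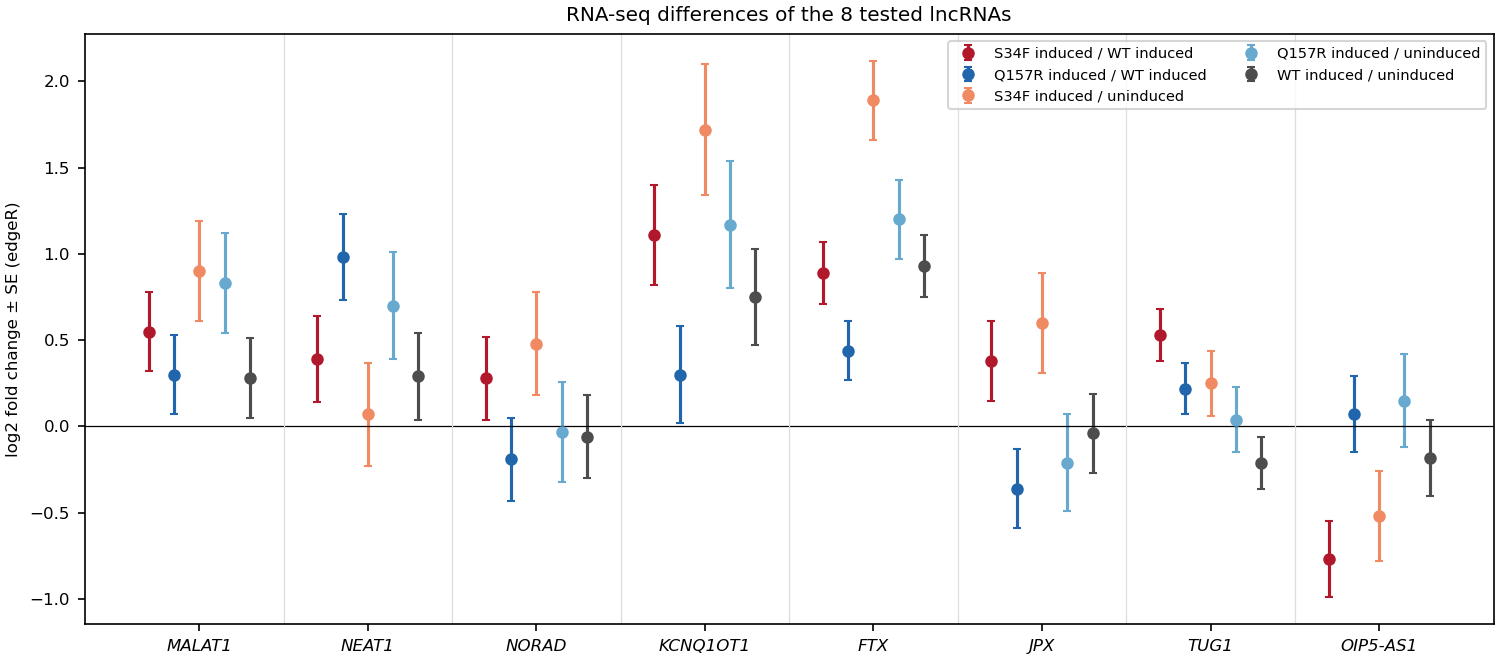
Log2 fold change in RNA of each of the 8 tested members in 5 RNA-seq comparisons, as points with bars of 1 SE from edgeR, on a linear log2 axis. FTX and KCNQ1OT1 stand at 0.89 and 1.11 in induced S34F against induced WT and at 1.89 and 1.72 in S34F induced against uninduced cells, while OIP5-AS1 stands below 0 in each of these.

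FTX was higher in every induced library than in any uninduced library of its line. In the S34F line FTX averaged 67.4 ± 3.85 CPM in induced cells (SD, n = 2) against 18.2 CPM in the 1 uninduced library, at 1.89 ± 0.23 (SE), the only member that edgeR called in that comparison (adjusted p = 0.034), where 1.96% of all genes tested were called. Without either induced library the value was 1.83 or 1.95, and the adjusted p was 0.167 or 0.258, so the call was lost. In the Q157R line FTX averaged 49.4 ± 4.54 CPM induced against 21.5 CPM in the 1 uninduced library, at 1.2 ± 0.23 (adjusted p = 0.552). In the WT line it averaged 36.3 ± 3.32 CPM induced against 19.1 ± 1.74 CPM uninduced (SD, n = 2 each), at 0.93 ± 0.18 (adjusted p = 0.693). With the replicate block edgeR called FTX in all 3 lines, with adjusted p of 0.00042 in S34F, 0.0382 in Q157R and 0.0281 in WT, where 19.2%, 0.263% and 0.418% of all genes tested were called.

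KCNQ1OT1 followed the same order, at 1.72 ± 0.38 in S34F (adjusted p = 0.0579, and 0.0251 with the block), 1.17 ± 0.37 in Q157R and 0.75 ± 0.28 in WT by edgeR. MALAT1 was at 0.90 ± 0.29 in S34F (adjusted p = 0.12, and 0.0261 with the block), 0.83 ± 0.29 in Q157R and 0.28 ± 0.23 in WT. OIP5-AS1 was at -0.52 ± 0.26 in S34F (adjusted p = 0.256, and -0.67 ± 0.18 with adjusted p = 0.0229 with the block), 0.15 ± 0.27 in Q157R and -0.18 ± 0.22 in WT. NEAT1 was at 0.07 ± 0.30 in S34F, 0.70 ± 0.31 in Q157R and 0.29 ± 0.25 in WT, and none passed in either fit. Without the block edgeR called 0 of 8 members in Q157R and 0 of 8 in WT, where 0% of all genes tested were called in each. DESeq2 called 1 in Q157R, FTX, and 0 in WT, and 3 in Q157R and 2 in WT were at an unadjusted p under 0.05. Over all genes DESeq2 called 69 in Q157R and 18 in WT, and 1888 and 1363 of the 21300 tested were at that level. The doxycycline itself and the protein it induces cannot be told apart in these comparisons. No difference between lines in the response to induction passed: for FTX the S34F response exceeded the WT response by 0.96 ± 0.28 in log2 (unadjusted p = 0.00901, edgeR adjusted p = 0.589, and 0.102 with the block, where 0.704% of all genes tested were called), and the Q157R response exceeded it by 0.27 ± 0.28 (adjusted p = 1). In those 2 tests 0 of 8 members and 0% of all genes tested were called by edgeR. At an unadjusted p under 0.05 there was 1 member for S34F and 0 for Q157R, and DESeq2 called 0 in each. Over all genes 1745 and 261 of the 21300 tested were at that level, and DESeq2 called 19 and 0.

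Genes that lie inside or across the members add detail on the same loci. Z83843.1, annotated within an FTX intron on the FTX strand (chrX:74209976-74213660), read 16.0 and 17.8 CPM in induced S34F and 4.26 in uninduced S34F, 6.14 and 9.57 in induced Q157R and 5.43 in uninduced Q157R, and 6.73 and 7.81 in induced WT and 4.42 and 4.09 in uninduced WT. The induced S34F libraries stood apart from all others, at 1.98 ± 0.37 against uninduced S34F (edgeR adjusted p = 0.0451) and 1.22 ± 0.27 against induced WT (0.0632, and 0.00368 with the block). Other rows within FTX introns on the FTX strand went both ways in raw counts summed over the induced libraries. RN7SL648P held 131 in S34F and 76 in WT, and MIR421 held 48 and 33. MIR374B held 46 and 17, MIR374A 24 and 7, and MIR545 14 and 7. MKRN5P held 44 and 60, AL359740.1 held 16 and 31, and DDX3P2 held 7 and 9. The induced S34F libraries had fewer gene counts than the induced WT libraries, so a lower raw sum in S34F does not show a lower level. OIP5, a centromere protein gene that overlaps OIP5-AS1 on the other strand, read 5.56 and 3.42 CPM in induced S34F and 22.8 in uninduced S34F, 22.5 and 11.1 in induced Q157R and 24.0 in uninduced Q157R, and 15.4 and 8.69 in induced WT and 22.5 and 17.5 in uninduced WT. Both RNAs of this pair were thus lowest in induced S34F, OIP5 at -1.43 ± 0.43 against induced WT (adjusted p = 0.107, and 0.0013 with the block).

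Protein partners and chromosomal neighbours of the members were also compared between induced S34F and WT cells. In edgeR 0 of 31 tested paraspeckle protein genes were called (median log2 fold change -0.13), with 7 at an unadjusted p under 0.05 and 1 called by DESeq2. SFPQ, a core paraspeckle protein, was at 0.05 ± 0.19, and HNRNPA1, an hnRNP found with NEAT1, at 0.37 ± 0.18 (adjusted p = 0.251). Of 25 tested nuclear speckle genes 1 was called, CLK4, a kinase of SR splicing proteins, higher in S34F at 1.31 ± 0.22 (adjusted p = 0.0444, list median 0.02). Of 18 tested partner and RNA decay genes 0 were called (median -0.13), with 4 at an unadjusted p under 0.05 and 3 called by DESeq2. With the block 5 of these 18 were called, all lower in S34F, where 22.4% of all genes tested were called and 12.9% were called lower. Among the 5 were ELAVL1, the partner of OIP5-AS1, at -0.74 ± 0.13 (adjusted p = 0.00308), and POP7, a subunit of the RNases that process tRNA, at -1.07 ± 0.18 (0.00264). The block called 1 paraspeckle gene higher, RBM3, a cold-inducible RNA-binding protein, at 0.85 ± 0.16, and 6 lower, among them NUDT21, a cleavage factor subunit, at -0.64 ± 0.14. It called 7 speckle genes higher and 2 lower. These counts are to be read against the 22.4% of all genes called with the block and the 1.67% called without it, and no list was tested against them. Over all genes, 4973 of the 21300 tested were at an unadjusted p under 0.05, and DESeq2 called 1567.

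Neighbours were read in 5 lists. Of these, edgeR called 0 of 6 tested neighbours of KCNQ1OT1, 0 of 4 of MEG3, 0 of 6 of FTX and JPX and 0 of 14 of MALAT1 and NEAT1 between S34F and WT. At an unadjusted p under 0.05 there were 2, 0, 1 and 4, and DESeq2 called 1, 0, 0 and 1. Over all genes, 4973 of the 21300 tested were at that level, and DESeq2 called 1567. The medians of these 4 lists were -0.07, -0.65, 0.07 and -0.16. Of 16 neighbours of TUG1, OIP5-AS1 and NORAD 1 was called, SCAND1, a SCAN domain protein gene, lower in S34F at -0.93 ± 0.18 (adjusted p = 0.0491, list median -0.27). CD81, a membrane tetraspanin gene beside KCNQ1OT1, stood at -0.70 ± 0.19 (adjusted p = 0.088, and 0.0126 with the block). DLK1, an imprinted growth regulator beside MEG3, stood at 0.80 ± 0.47 (adjusted p = 0.332), and RLIM, an X-linked ubiquitin ligase gene beside FTX, at -0.01 ± 0.15. Among 25 tested lncRNAs outside the 9, edgeR called 1, TTN-AS1, the antisense RNA of titin, higher in S34F at 1.01 ± 0.17 (adjusted p = 0.0449, list median 0.2). Between Q157R and WT, and between induced and uninduced WT cells, 0 genes of any of these lists were called by edgeR, where 0% of all genes tested were. In the paraspeckle list these comparisons had 1 and 3 genes at an unadjusted p under 0.05 and DESeq2 called 0 and 1, and in the speckle list 1 and 1 genes and 0 and 0. Over all genes, 716 and 1363 of the 21300 tested were at that level, and DESeq2 called 3 and 18.

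Across the 10 RNA-seq libraries the members' levels had patterns like those of other genes, as a description of libraries that share groups and depth. In log2 CPM, KCNQ1OT1 and FTX had a Pearson r of 0.921 with each other, MALAT1 and FTX 0.876, and KCNQ1OT1 and OIP5-AS1 -0.695. The named genes most like each member were ITGAM for FTX (r = 0.989), RBMS2 for KCNQ1OT1 (0.983), NARS for OIP5-AS1 (0.992), GOLGA7B for MALAT1 (0.97), SLC37A3 for NEAT1 (0.944), ZNF426 for NORAD (0.964), ZNF227 for JPX (0.952) and ZNF417 for TUG1 (0.962). The second in each case were ADCY10P1 (0.987), STMN1P1 (0.982), BATF3 (0.976), COL11A1 (0.967), C18orf25 (0.926), ANKRD2 (0.952), TLR6 (0.939) and ZNF681 (0.946).

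Crosslinked RNA of the members has to be read from the gene on the other strand. Over 335 pairs of opposite-strand genes in which the row's own gene was near 0 in RNA-seq (at most 1 CPM) and its partner was expressed (at least 10 CPM), the silent row held more CLIP counts per base than its partner in 310 of 333 pairs with counts in eCLIP (93.1%) and in 301 of 329 in freCLIP (91.5%). Only 0.856% to 1.91% of CLIP reads named a gene. The rows of the CLIP tables are therefore read here as holding reads of the strand opposite to the named gene. A member's own row does not show its own binding, and short genes annotated across it on the other strand act as windows on it. A read that touches a window is counted whole, so densities of short windows are overstated. Windows that are processed pseudogenes may also share reads with their parent genes and are uncertain.

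MALAT1's own row held 48 eCLIP counts (0.544 per 100 bases), while its window AP000769.2 on the minus strand (396 bases) held 276 (69.7 per 100 bases). TUG1 showed the same contrast, with 11 counts in its own row (0.108 per 100 bases) and 1024 in the windows AC004542.2 and AC004542.1 (126 per 100 bases). OIP5-AS1 held 308 counts in its own row (2.43 per 100 bases) and 426 in OIP5 (34.5 per 100 bases), and KCNQ1OT1 held 218 (0.238) and 405 over 5 windows (7.43). Only 470 of OIP5's 1236 exon bases lie over OIP5-AS1 and the other 766 lie beyond it, so most of that row does not report on OIP5-AS1. Likewise 121 of KCNQ1's 4447 exon bases lie over KCNQ1OT1, and without KCNQ1 the other 4 windows held 329 counts over 1002 bases (32.8 per 100 bases). In freCLIP the windows held 288 counts for MALAT1, 644 for TUG1, 376 for OIP5-AS1 and 804 for KCNQ1OT1. NEAT1 and NORAD have no opposite-strand gene, so their binding cannot be read from these tables. NEAT1's own row read 8.13 and 6.69 CPM for U2AF1 and 6.65 and 204 CPM for U2AF2, with 191 of its 219 eCLIP counts in U2AF2 replicate 2. NORAD's row held 5. MEG3's window AL117190.2 held 0 counts in every eCLIP and freCLIP library, which allows up to 3 counts in each.

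**Figure D3:**
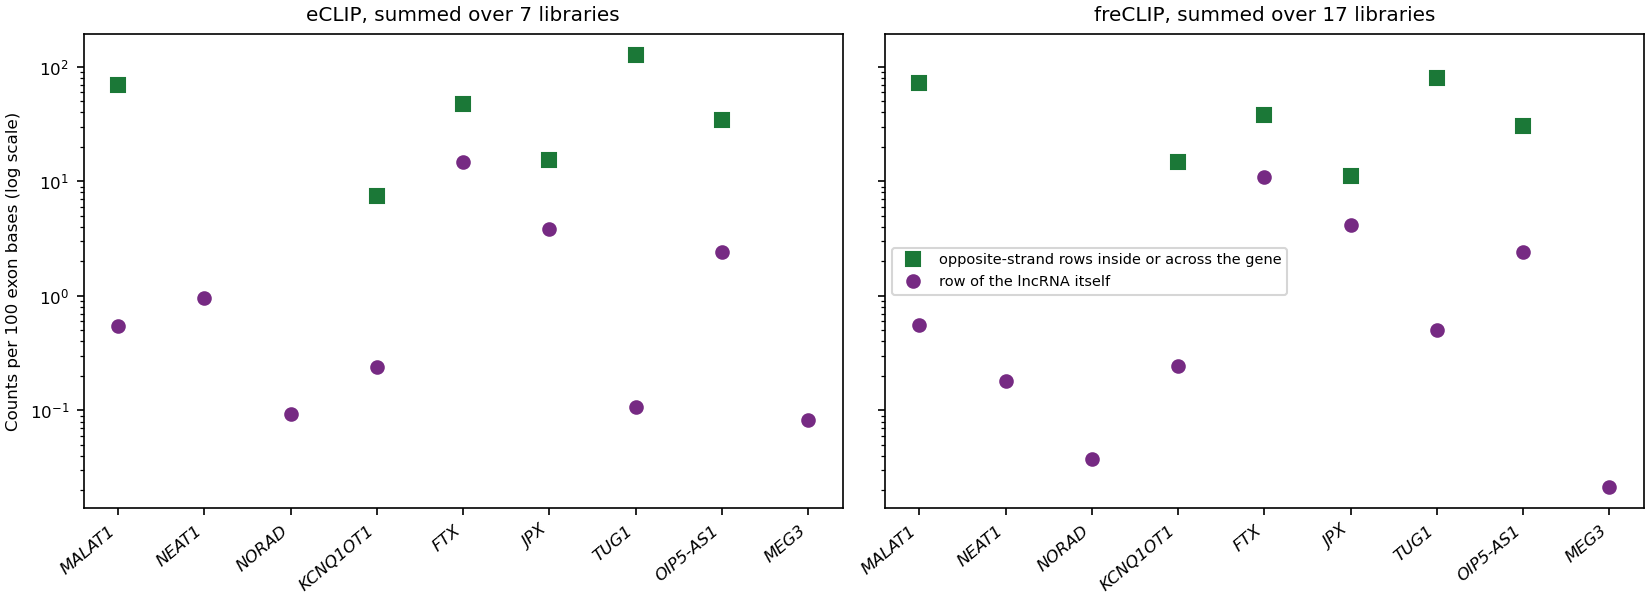
Counts per 100 bases, on a log axis, in the own row of each member and in the opposite-strand rows that lie across it, summed over the eCLIP libraries and over the freCLIP libraries. For MALAT1, TUG1, OIP5-AS1 and KCNQ1OT1 the windows are denser than the own row (69.7 against 0.544 per 100 bases for MALAT1 in eCLIP), and a value of 0 has no point on this axis.

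FTX had the most window counts of the 9. Its 16 windows, JPX's row among them, held 11599 eCLIP and 9181 freCLIP counts, while its RNA, like that of KCNQ1OT1 and JPX, was low per kilobase. The densest long window was the pseudogene RAB11FIP1P1 (1762 bases), which contains an FTX 3' splice site and held 2585 counts for U2AF1 and 2335 for U2AF2. RF02119 (71 bases), which spans a whole FTX exon up to its 3' splice site, held 619 and 755, and MIR374C (70 bases) held 455 and 258. In CPM per kilobase of window, RAB11FIP1P1 stood at 563 in eCLIP, where FTX RNA stood at 1.27 in RNA-seq, and MALAT1's window stood at 141, where its RNA stood at 393. Over all windows of a member the order was another, with 47.7 eCLIP counts per 100 bases for FTX, 69.7 for MALAT1 and 126 for TUG1. JPX's binding is to be looked for in FTX's own row, which shares 10580 exon bases and 7 JPX 3' splice sites with it and held 4240 eCLIP counts. Of that row's 28487 exon bases the other 17907 lie off the JPX exons, so most of it does not report on them.

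The sequences below are the readable 3' splice sites of FTX inside its windows other than JPX, on the FTX strand (minus, GRCh38, read from GENCODE release 29 transcripts), shown because they are where U2AF would be looked for. The intron bases of the sites in RF02119, the densest window, and in RF02120 and RF02123 were not read here, and the JPX row holds 2 further FTX sites besides the one in AL627389.1. Capitals mark the last 3 bases of the intron and the first base of the exon, which U2AF1 reads.
RAB11FIP1P1 window, chrX:74203905-74203934: catgttttctctaatgtccccaCAGAacag
DDX3P1 window, chrX:74130724-74130753: ccataccttccattttccttcaCAGCcttc
DDX3P1 window, chrX:74130943-74130972: ttcctctttccatcaaatccacTAGAcctc
RF02121 window, chrX:74280997-74281026: actcatactgatgcttcctgccCAGCaagt
AL627389.1 window, chrX:74069580-74069609: atgatgttgtctttaactcaaaCAGAtaat
The RAB11FIP1P1 site has 16 pyrimidines among the 22 intron bases before the capitals and a longest run of 8, and those in DDX3P1 have 18 and 17, with runs of 9 and 11. The RF02121 site has 15, with a run of 6, and the AL627389.1 site has 12, with a run of 5. The AL627389.1 window held 8.54 eCLIP counts per 100 bases, RAB11FIP1P1 279, DDX3P1 59.4 and RF02121 241. The JPX row, with 3 FTX sites of 8, 13 and 12 pyrimidines, held 3.81. These rows differ in length and parent gene, and no relation between sequence and density was tested.

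Of the 15 FTX windows other than JPX, 7 contain an FTX 3' splice site and 8 do not. A site counts as contained when its first exon base lies in the window. FTX exons cover 69 of 71 bases of RF02119, 93 of 94 of RF02120 and 146 of 147 of RF02123. The intron side of those sites therefore lies almost wholly outside the windows. Exon cover and window length were not separated from the presence of a site. Over the 7 (5353 bases) eCLIP counts summed to 8854, with a median of 279 per 100 bases and a range of 8.54 to 1940. Over the 8 (5397 bases) they summed to 2229, with a median of 23.6 and a range of 0.443 to 1020. In freCLIP the medians were 223 and 16.9 per 100 bases, with ranges of 8.29 to 1430 and 0 to 531. The ranges overlap, with AL627389.1 at the low end of the windows with a site and MIR374C at the high end of those without. MIR374C lies across the FTX-hosted miRNA miR-374b on the other strand, 14640 bases from the nearest FTX 3' splice site. Its window on the FTX strand and that of RF02119 are shown because they were the densest of the 15 per base.
MIR374C window, chrX:74218549-74218618, minus strand: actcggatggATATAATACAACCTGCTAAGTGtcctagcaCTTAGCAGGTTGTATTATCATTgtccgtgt
RF02119 window, chrX:74274341-74274411, minus strand: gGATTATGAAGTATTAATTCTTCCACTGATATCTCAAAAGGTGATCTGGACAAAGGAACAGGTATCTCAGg
Capitals in the first mark the arms of miR-374b, and in the second the FTX exon. The mature miRNAs from RefSeq (GRCh38.p14) are given with the seed in capitals.
hsa-miR-374b-5p: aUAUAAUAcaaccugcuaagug
hsa-miR-374b-3p: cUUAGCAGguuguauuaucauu
The letters of both arms lie inside the MIR374C window, so a read of the miR-374b hairpin itself would be counted in it. Whether the reads come from the hairpin or from FTX around it cannot be told apart in gene counts.

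**Figure D4:**
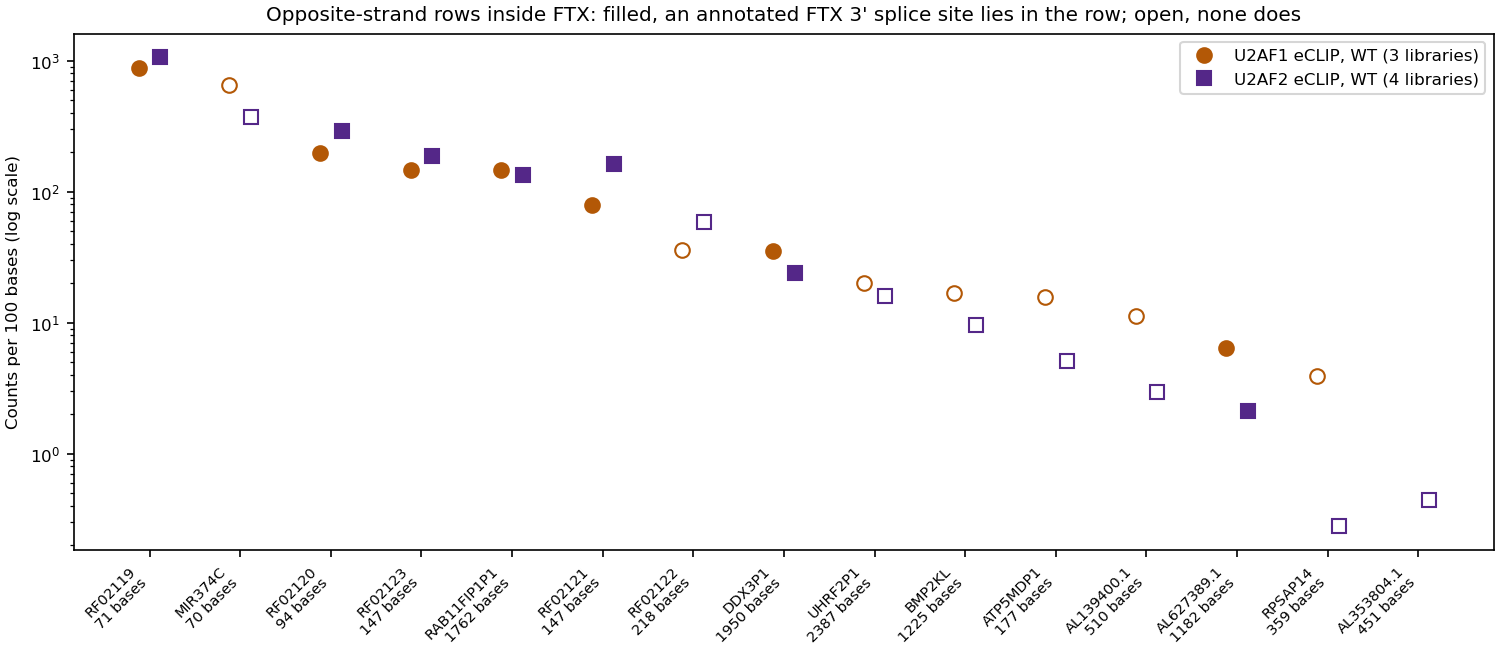
eCLIP counts per 100 bases (log axis) in each opposite-strand window across FTX, for U2AF1 (3 libraries summed) and U2AF2 (4 libraries summed), with filled symbols for windows holding an FTX 3' splice site and open symbols for those without one. A site counts as held when its first exon base lies in the window. The 7 windows with a site run up to 1940 per 100 bases over all eCLIP libraries (RF02119), MIR374C is the dense window without a site, and a sum of 0 has no point.

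In eCLIP of WT cells, U2AF1 was compared with U2AF2 on the same windows. RAB11FIP1P1 read 1050 and 1310 CPM for U2AF1 and 1050 and 973 CPM for U2AF2. RF02119 read 232 and 452 CPM for U2AF1 and 331 and 328 for U2AF2, and TUG1's window AC004542.2 read 156 and 124 for U2AF1 and 169 and 145 for U2AF2. These values overlap or lie close, while MIR374C, at 209 and 63.6 CPM for U2AF1 and 114 and 111 for U2AF2, had U2AF1 replicates on either side. FTX's own row, which lies partly over JPX, read 1090 and 1020 CPM for U2AF1 and 764 and 675 for U2AF2. Those values did not overlap, at 0.55 ± 0.22 in log2 (edgeR adjusted p = 0.763). JPX's row, which carries part of FTX, read 144 and 141 CPM for U2AF1 and 72.4 and 81.1 for U2AF2, at 0.89 ± 0.32 (adjusted p = 0.763). Neither these nor the other rows passed in edgeR, with 0 of 5 tested member rows and 0 of 22 tested windows called, where 0% of all rows tested were. DESeq2 called 0 of each, and 1 member row (JPX) and 3 windows (AL353804.2, AL139400.1 and AL627389.1) were at an unadjusted p under 0.05. Over all rows DESeq2 called 0, and 601 of the 10521 tested were at that level.

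In freCLIP, 4 member rows and 19 of 26 windows passed the filter, and no difference between S34F and WT was called on them. On RAB11FIP1P1 the light fraction averaged 1120 ± 275 CPM in S34F (SD, n = 3), with 170, 39 and 225 counts, and read 825, 986 and 1530 CPM in WT, a difference of 0.02 ± 0.36 in log2. The heavy fraction read 1160, 973 and 1420 CPM in S34F and 859, 1120, 1110 and 1130 in WT, at 0.17 ± 0.33. The groups overlapped in both fractions. Binding relative to the level of FTX RNA was not tested. OIP5, partly a window on OIP5-AS1, read 198, 225 and 127 CPM in heavy S34F libraries and 74.7, 69.1, 86.4 and 94.2 in heavy WT libraries. Those groups did not overlap, but the difference of 1.15 ± 0.79 did not pass (edgeR adjusted p = 1). Over both fractions edgeR called 0 of 4 member rows and 0 of 19 windows, where 0.337% of all rows tested were called in the light fraction and 0.132% in the heavy fraction. At an unadjusted p under 0.05 there were 0 windows in the light and 2 in the heavy fraction and 1 member row in each (KCNQ1OT1 in the light and JPX in the heavy fraction, both lower in S34F), and DESeq2 called 0. These 2 windows were DDX3P1 at -1.60 ± 0.71 and UHRF2P1 at -1.50 ± 0.71, lower in S34F. Of all 6833 rows tested, 970 were at an unadjusted p under 0.05 in the light fraction and 278 in the heavy fraction. DESeq2 called 95 and 36 rows there.

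The light Q157R libraries were lower than the light WT libraries on 1 called FTX window, RAB11FIP1P1. It read 329 and 118 CPM in Q157R and 825, 986 and 1530 CPM in WT, and the groups did not overlap. The log2 fold change was -2.41 ± 0.47 (edgeR adjusted p = 0.00144). Of 11 FTX windows tested, 9 had a log2 fold change below 0 and 2 above it, UHRF2P1 at 0.15 ± 0.86 and RF02121 at 0.73 ± 1.26, and AL627389.1 was at -0.10 ± 1.68. FTX's own row, which lies partly over JPX, read 309 and 266 CPM in Q157R and 598, 705 and 1040 in WT, at -1.45 ± 0.45 (adjusted p = 0.0378). That call was lost with the block (0.0729), in DESeq2 (0.0586), with RLE scaling (0.112), with total counts (0.105) and with no filter (0.371). In OIP5, Q157R held 0 counts and WT held 36, at least 3.63-fold lower in Q157R against a floor of 3 counts over the group (adjusted p of the fit 0.042, lost with the block at 0.0773, RLE scaling at 0.0659, total counts at 0.0631 and no filter at 0.145). Other windows also held 0 counts in Q157R and were not called. Among them were RF01948, with 41 counts in WT (at least 4.13-fold lower), and RF02123, with 36 (at least 3.63-fold lower). In edgeR 1 of 4 member rows and 2 of 19 windows were called lower, where 7.6% of all rows tested were called and 6.25% were called lower. The median of all rows tested was itself -1.19 in this comparison, so FTX's row lay close to it and RAB11FIP1P1 further below. The light Q157R libraries had 38415 and 135596 gene counts, with 16 counts of RAB11FIP1P1 in each, and their part in the result was not tested. Without Q157R replicate 3 all of these calls were lost, RAB11FIP1P1 standing at -1.82 (adjusted p = 0.0536). Without WT replicate 4 FTX's row also lost its call (adjusted p = 0.0779).

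In the heavy fraction RAB11FIP1P1 read 1110 and 1210 CPM in Q157R and 859, 1120, 1110 and 1130 in WT, at 0.14 ± 0.37, and FTX's row stood at -0.17 ± 0.39. There edgeR called 0 of 4 member rows and 0 of 19 windows, where 0% of all rows tested were called, with 0 of each at an unadjusted p under 0.05 and 0 called by DESeq2. Over all rows 149 of the 6833 tested were at that level, and DESeq2 called 0. Whether the gap between the Q157R and WT lines differed between the fractions was not tested. Light against heavy WT libraries also gave 0 of 4 member rows and 0 of 19 windows called by edgeR, where 0.0732% of all rows tested were, with 0 and 1 at an unadjusted p under 0.05 and 0 called by DESeq2. The window at that level was RF01948, on KCNQ1OT1, at 2.91 ± 1.25 in log2 (adjusted p = 0.553). Of all 6833 rows tested in that comparison 518 were at an unadjusted p under 0.05, and DESeq2 called 12. KCNQ1OT1's own row held 6, 121 and 2 counts in light WT libraries, and TUG1's own row held 0, 50 and 0 there, so 1 library carried nearly all of both.

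**Figure D5:**
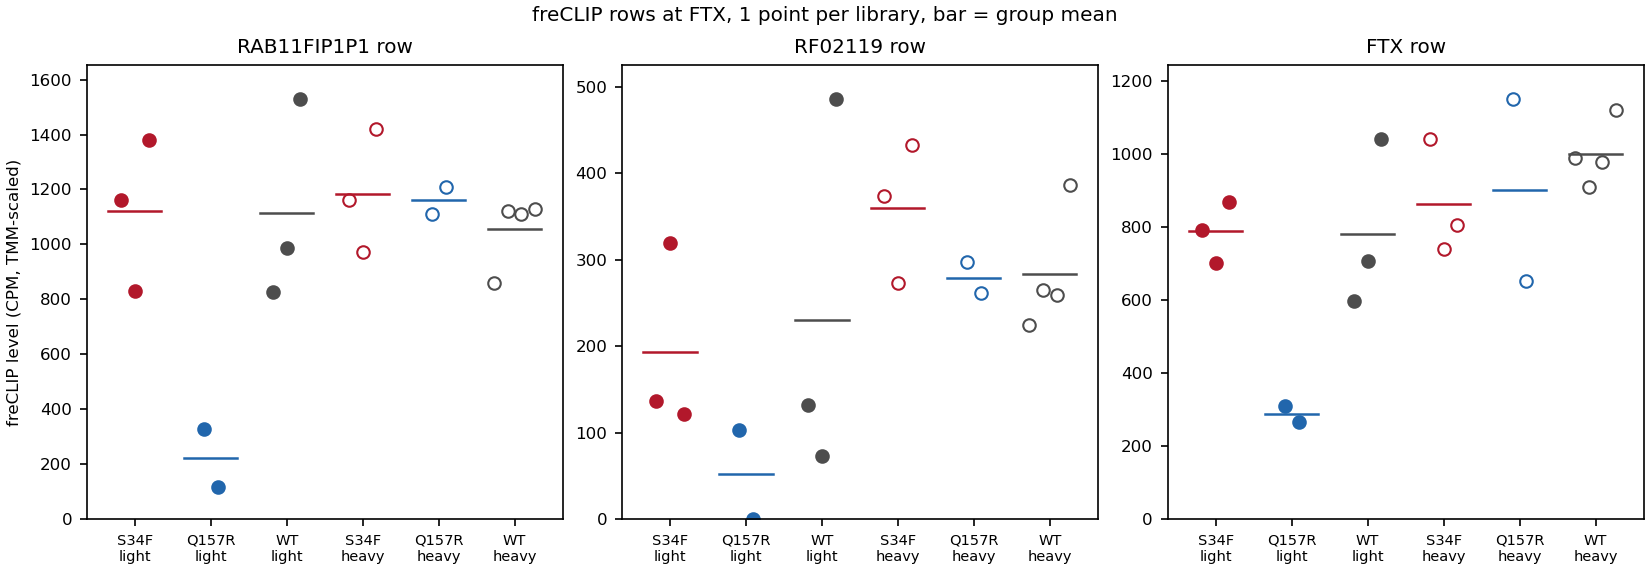
freCLIP level of RAB11FIP1P1, the densest long window on FTX, of the short window RF02119, and of FTX's own row, which lies partly over JPX. Levels are in TMM-scaled CPM on linear axes from 0, with 1 point per library by fraction and genotype and a bar at the group mean. The 2 light Q157R libraries, at 329 and 118 CPM on RAB11FIP1P1, lie below every light WT and S34F library there, and the heavy groups overlap.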

How the data were processed

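RNA-seq, eCLIP and freCLIP were analysed in 34 of the 43 samples listed, and the 9 TL-seq samples were left aside. What the authors deposited are raw read counts per annotated gene and library, and the submitters' processing notes name STAR 2.5.3a and 2.7.0f, HISAT2, HTSeq, SAMtools, cutadapt, DESeq2 and edgeR on GRCh38.p10, and do not tie a tool to a step. The strand setting is not given in the sources used here. Lines for reads that named no gene entered neither library sizes nor tests, and 58039 of 58347 entries matched GENCODE release 29. Each assay had 1 fit over all its libraries in edgeR 4.0.16 (R 4.3.3) with TMM scaling, filterByExpr (minimum count 10), and a robust quasi-likelihood test with 1 mean per group and Benjamini-Hochberg adjustment over all rows tested, with a threshold of 0.05. Groups of 1 library borrow the spread of the others. The standard error is the log2 fold change divided by the root of F. DESeq2 1.42.0, the replicate number as a block, other scalings, other filters and leaving out each library were alternatives, and the fit was tested on simulated data. Levels are TMM-scaled CPM, as mean ± SD.

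RNA-seq libraries with the same replicate number deviate together (r = 0.211 to 0.652 in 12 of 12 pairs), so the numbers were taken to pair them, from the data and not from the labels. With 2 libraries in a group, their deviations are equal and opposite. Each r therefore occurs for both replicate numbers, and the 12 are not independent. Calls with the block rest on a pairing chosen from the same data. The labels do not say that replicates were separate cultures, so p-values measure a spread that may be technical. The eCLIP U2AF1 libraries 1 and 1a differed by less than the sampling noise (chi-square per degree of freedom 0.683). The U2AF2 libraries 1 and 1a, at 1.09, and 2 and 2a, at 1.07, differed by slightly more than it. Each of these pairs, labelled technical, was counted as 1 sample. Intervals and floors cover counting error only. Figures were drawn with matplotlib 3.10.9, and tables were joined in Python 3.11.15 with pandas 2.3.3. The members, gene lists and tests were chosen with earlier results of these data known. All 9 members are named, with some of the genes across them that hold counts and the 2 unoverlapping genes of highest r. Other genes across the members also hold counts and are not described. From each list up to 3 called genes are named or, where none was called, the most abundant 2. 1 gene of these lists is not reported here. DDX3P1, UHRF2P1 and RF01948 were singled out after their values were seen.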

Additional observations from a re-analysis of the deposited data

Results flagged for a closer look

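In the heavy freCLIP WT group, the only group of 4, 33 rows of members and windows were looked at for a library far from the other 3, and 4 had one. The rule would pick about 1 in 20 groups of normally distributed values. That rate need not hold for low counts, for rows below the filter, or for rows that share a locus. The 4 of 33 can therefore not be read against it. MALAT1's own row read 29.4 CPM in replicate 4 and 0 in the other 3 libraries. RAB11FIP1P1, on FTX, read 859 CPM in replicate 1 against 1110, 1120 and 1130 CPM. AL627389.1, on FTX, read 69.1 CPM in replicate 2 against 19.6, 22.8 and 28.0 CPM. AL353804.2, on JPX, read 60.3 CPM in replicate 3 against 18.7, 23.0 and 23.5 CPM. Replicates 1 and 2 of this group are its shallowest libraries, with 120733 and 99734 gene counts.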

How the results depend on the processing

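The number of members called changed with several settings. The replicate block, which takes the RNA-seq libraries as paired, gave 4 for S34F against WT, 4 for S34F against Q157R, 4 for S34F induction, 1 for Q157R induction and 1 for WT induction, where the fits without it gave 0, 0, 1, 0 and 0. DESeq2 gave 3, 1, 2 and 1 in the first 4 of these, no filter gave 3, 2, 3 and 2, and total counts gave 1 for S34F against WT. Over all genes DESeq2 called 1567, 1237, 1787 and 69 in those 4. For Q157R against WT, no filter gave 1. Leaving out libraries gave 0 for S34F induction. For light freCLIP, Q157R against WT, where 1 member row was called, the block, DESeq2, RLE scaling, total counts and no filter each gave 0, and leaving out libraries gave 0 to 2. For eCLIP no filter gave 1 and leaving out replicates gave 0 to 4. The calls in RAB11FIP1P1 held under the block, DESeq2, both scalings and no filter, while that in OIP5 was lost under the block (adjusted p = 0.0773), both scalings and no filter.

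Over all genes the count called was 356 for S34F against WT, and 4779 with the block, 1567 with DESeq2 and 0 with the 2 groups alone. In eCLIP, without U2AF1 replicate 1, AP000769.2 turned to -1.72 and MIR374C to -0.99 (0.59 and 0.88 without U2AF1 replicate 2), and without U2AF1 replicate 2 RF02119 turned to -0.52 (0.29 without U2AF1 replicate 1). These reversals were called, and the lone replicate is then assumed to vary like the other group. The cause of these changes was not tested. The replicate numbers do not pair the CLIP libraries (r above 0.1 in 6 of 34 freCLIP and 0 of 2 eCLIP pairs). The block gave 333 called rows in place of 519 for light Q157R and 11 in place of 0 for eCLIP, and changed no other member call.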
